A study of Homo sapiens with 8 samples.

Results

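Ribosome-bound mRNA of cells depleted of EIF4G2 was compared with that of control cells. The comparison set 2 polysome libraries carrying an EIF4G2 hairpin against 2 polysome libraries carrying a scramble hairpin, and it was fitted on these 4 libraries alone. Genes entered with at least 10 counts in 2 or more of the 4 libraries, which kept 13841 of the 59385 symbols in the deposited count table. Of genes at the edge of that rule, 223 had a second-highest count of exactly 10, such as ACSS1 (12 and 9 counts in knockdown, 10 and 1 in scramble), and 217 had 9, such as ANKRD6 (9 and 8 in knockdown, 9 and 4 in scramble), and were left out. The cells were IHCF, an immortalized line of human cardiac fibroblasts, infected with lentivirus that carried shRNA to eIF4G2 or a scramble shRNA without a target. Both kinds of cell were serum-starved (6 h or longer) before 24 h with TGFb, so treated controls are the baseline and no untreated cell is in the comparison. The 4 other libraries of the study hold total RNA of the same 2 kinds of cell, again 2 each. The labels name 1 hairpin against the gene and no rescue, so effects of that hairpin on other transcripts and of EIF4G2 loss cannot be told apart. They call the libraries biological replicates and name no separate cultures, so the p-values below reflect only library-to-library spread, which may be technical.

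Polysomes are mRNAs that carry several ribosomes at once, and their RNA is taken as a picture of what a cell is translating. EIF4G2, also known as DAP5 or NAT1, is a translation initiation factor related to the scaffold EIF4G1. It binds the helicase eIF4A and the eIF3 complex but has no site for the cap-binding protein eIF4E, and it serves a subset of mRNAs. In cardiac fibroblasts TGF-beta drives the myofibroblast state, in which the cell makes collagen and contractile protein. The question that the study's title names is which mRNAs of the fibrotic programme need EIF4G2 for translation.

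The 4 polysome libraries held from 18043714 to 24590030 counts, and they differed among themselves more than the total RNA libraries did (biological coefficient of variation 0.246 against 0.112). Pearson's r of log2 levels across genes was 0.970 between the scramble and 0.955 between the knockdown replicates. Against scramble replicates 1 and 2, r was 0.957 and 0.954 for knockdown replicate 1, and 0.967 and 0.968 for knockdown replicate 2. Knockdown replicate 2 was thus closer to both scramble libraries than to the other knockdown library. Counts of replicates differed beyond sampling noise (chi-square per degree of freedom 135 in scramble and 42.4 in knockdown). Knockdown replicate 1 stood alone on the leading principal component (44.98% of the variance) at 63.1, against −26.4 to −16.9 in the other 3 libraries. Knockdown replicate 2 stood at −48.7 on the next component (30.1%), against 0.55 to 28.8. Scramble replicate 1 had 7.12% of its counts on mitochondrially encoded genes, against 14.5 to 17.5% in the other 3. Of 14 fibroblast markers 11 were tested and 0 were without a count, with DCN, FAP and TCF21 too low to test. Summed fibroblast marker levels in CPM (per-million counts, taken relative to each library's TMM-scaled total) were 4200 to 4795 in scramble and 4428 to 4862 in knockdown libraries. The single markers leaned lower, with 8 of the 11 at a log2 fold change of knockdown against scramble below 0. Their median was −0.43, at −0.58 in knockdown replicate 1 and 0.06 in replicate 2. Of the 11, 4 (36.4%) were lower and 2 (18.2%) higher without overlap, beside 18.4 and 17.8% of all tested genes.

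EIF4G2 fell in polysomes to 33.3% of the scramble level. In GRCh38 it spans bases 10797050 to 10809110 of chromosome 11, minus strand. Its coding sequence is annotated from a GTG codon in place of the usual ATG, and its opening 30 bases in GENCODE v29, with the start codon in capitals, are set beside those of ANKRD1, which starts at ATG:
EIF4G2: GTGgagagtgcgattgcagaagggggtgct
ANKRD1: ATGatggtactgaaagtagaggaactggtc
EIF4G2 stood at 611 and 609 CPM in scramble replicates 1 and 2, and at 171 and 235 CPM in knockdown replicates 1 and 2. TMM scaling sets libraries to a common level on the premise that most genes do not differ. Both knockdown libraries lay far below both scramble libraries. The log2 fold change of knockdown against scramble was −1.59 ± 0.22 (SE), with an edgeR adjusted p = 0.00961, and it ran from −1.83 to −1.37 when each library was left out in turn. In total RNA the same gene had 1137 and 1128 CPM in scramble against 412 and 470 CPM in knockdown (−1.36 ± 0.12, edgeR adjusted p = 0.0344). The polysomal and total fold changes differed by −0.25 ± 0.25 (edgeR interaction adjusted p = 0.895), a test that did not pass. Which part of the transcript the hairpin targets is not given in the sources used here. In bulk libraries such as these, fewer cells that hold an mRNA in polysomes and less of it per cell cannot be told apart.

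ANKRD1 fell alongside the targeted gene. It encodes a cardiac ankyrin repeat protein that shuttles between sarcomere and nucleus in muscle, is induced by stretch and by TGF-beta, and is a common reporter of YAP activity. In GRCh38 it spans bases 90912096 to 90921276 of chromosome 10, minus strand. It stood at 46.3 and 60.4 CPM in scramble against 19.0 and 21.6 CPM in knockdown polysomes. The groups were far apart, and 38.1% of the scramble level was left (log2 fold change −1.39 ± 0.22, edgeR adjusted p = 0.0254). Total RNA held 8.81 and 10.1 CPM in scramble against 7.06 and 7.72 CPM in knockdown libraries, which do not overlap either but lie closer together (−0.36 ± 0.17, edgeR adjusted p = 0.396). The difference between the polysomal and the total fold change was −1.06 ± 0.27, with an unadjusted p = 0.00249 and an adjusted p = 0.773 in edgeR's interaction test. Left-out fits gave −1.57 to −1.19 for ANKRD1, called in 4 of 4.

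SPCS2P4 was the 1 gene called higher, and it is a processed pseudogene, a copy of a mature mRNA inserted elsewhere in the genome. In GRCh38 it spans bases 28095742 to 28096422 of chromosome 1, minus strand, and it copies SPCS2, a subunit of the signal peptidase of the endoplasmic reticulum encoded on chromosome 11 from 74949247 to 74979031. The copy matches the SPCS2 coding sequence at 675 of 684 aligned positions (98.7%), with 3 mismatches and 6 gap positions. The 90 bases that hold the most mismatches show how alike the copy and its parent are, with the differing bases in capitals:
SPCS2: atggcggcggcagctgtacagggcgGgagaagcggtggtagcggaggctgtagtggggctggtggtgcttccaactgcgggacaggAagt
SPCS2P4: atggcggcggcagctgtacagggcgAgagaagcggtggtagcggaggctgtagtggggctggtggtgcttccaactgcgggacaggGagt
SPCS2P4 had 120 and 86 counts in scramble and 447 and 396 counts in knockdown polysomes, or 4.54 and 3.55 against 21.2 and 23.7 CPM (log2 fold change 2.47 ± 0.28, edgeR adjusted p = 0.00147). SPCS2 itself had 3739 and 4475 counts in scramble and 2442 and 2487 in knockdown polysomes (−0.30 ± 0.21, edgeR adjusted p = 0.894). The pseudogene took 15.5 and 13.7% of the counts of the pair in knockdown polysomes, 3.11 and 1.89% in scramble polysomes and 1.82 to 6.46% in the 4 total libraries. In total RNA its counts overlapped between groups, at 129 and 42 in scramble and 45 and 115 in knockdown. How reads that match several places were counted is not given in the sources used here, so the split between the pseudogene and its parent is uncertain, and its part in the call was not tested.

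**Figure D1:**
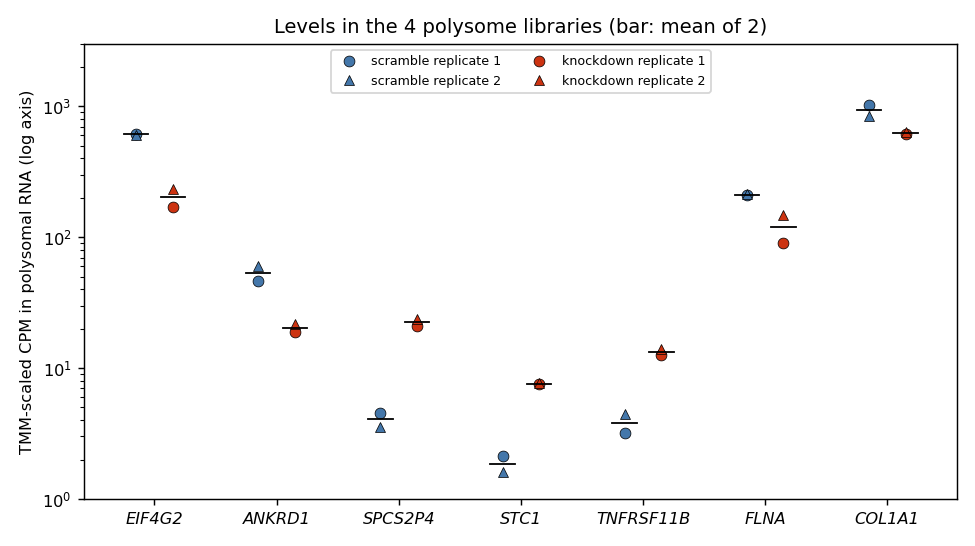
TMM-scaled CPM (log axis) of 7 genes in the 4 polysome libraries, with scramble in blue, knockdown in red, circles for replicate 1, triangles for replicate 2 and a bar at the mean of each pair. The 3 called genes (EIF4G2, ANKRD1, SPCS2P4) and 4 others (STC1, TNFRSF11B, FLNA, COL1A1) all had knockdown libraries on 1 side of the scramble libraries, with EIF4G2 at 611 and 609 against 171 and 235 CPM.

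The 3 calls make up 0.0217% of the genes tested, 1 higher (0.00722%) and 2 lower (0.0144%). Unadjusted p-values under 0.05 were found for 844 genes, or 6.1% of all tested, with 404 higher (2.92%) and 440 lower (3.18%). Both knockdown libraries lay above both scramble libraries for 2460 genes (17.8%) and below them for 2551 (18.4%). These shares are the background against which the gene groups are read. EIF4G2, ANKRD1 and SPCS2P4 were called in each of the 4 fits that left out a polysome library, while the number of calls rose to 10 without scramble replicate 1, 17 without knockdown replicate 1, 18 without scramble replicate 2 and 217 without knockdown replicate 2. In each of those fits the lone library of a group is assumed to vary as the other group's libraries do. With 1 spread shared by all 8 libraries edgeR called 2 genes in polysomes, EIF4G2 and STC1, and neither ANKRD1 (adjusted p = 0.0687) nor SPCS2P4 (adjusted p = 0.165).

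**Figure D2:**
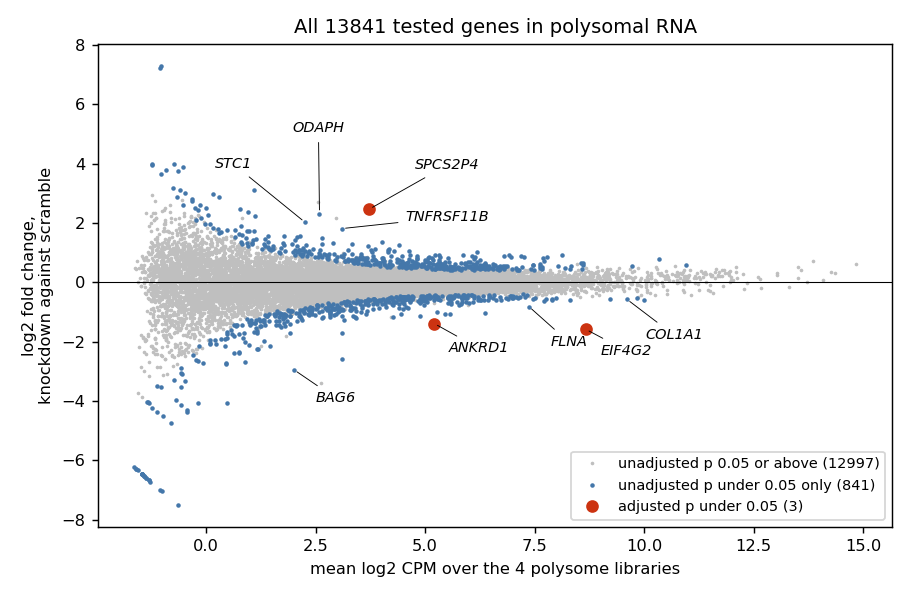
Fitted log2 fold change of knockdown against scramble (vertical) against mean log2 CPM over the 4 polysome libraries (horizontal) for 13841 genes. Red points are the 3 called genes, blue points other genes with an unadjusted p under 0.05 and grey points the rest, whose spread widens toward low levels.

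STC1 and TNFRSF11B stood higher in knockdown polysomes without passing edgeR's test. STC1 encodes stanniocalcin, a secreted hormone first known for calcium balance in fish. It stood at 2.12 and 1.61 CPM in scramble against 7.52 and 7.71 CPM in knockdown polysomes, from 39 to 159 counts per library. The knockdown values lay close together and well above the scramble values (log2 fold change 2.03 ± 0.40, edgeR adjusted p = 0.173, DESeq2 adjusted p = 0.0105). In total RNA STC1 stood at 26.1 and 25.4 against 34.9 and 42.3 CPM (0.58 ± 0.13), and the fold changes differed by 1.42 ± 0.30 (edgeR interaction unadjusted p = 0.000687, adjusted p = 0.773). TNFRSF11B encodes osteoprotegerin, a decoy receptor that soaks up the ligand RANKL. It stood at 3.18 and 4.42 CPM in scramble against 12.6 and 14.0 CPM in knockdown polysomes. Its groups did not overlap (1.81 ± 0.33, edgeR adjusted p = 0.0933, DESeq2 adjusted p = 0.00227), nor did they in total RNA, where TNFRSF11B stood at 4.93 and 5.31 against 8.95 and 8.05 CPM (0.73 ± 0.18). Leaving out 1 library moved STC1 between 1.84 and 2.24 and TNFRSF11B between 1.59 and 2.06, and edgeR called them in 2 and 3 of the 4 fits.

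FLNA and COL1A1, a crosslinker of actin filaments and the main chain of type I collagen, lay on the other side. FLNA stood at 209 and 212 CPM in scramble against 89.8 and 149 CPM in knockdown polysomes. The knockdown replicates differed from each other by more than the scramble replicates did, and the log2 fold change was −0.82 ± 0.23 (edgeR adjusted p = 0.470), or −0.50 without knockdown replicate 1 and −1.23 without knockdown replicate 2. COL1A1 stood at 1018 and 847 CPM in scramble against 620 and 632 CPM in knockdown polysomes, with no overlap (−0.57 ± 0.22, edgeR adjusted p = 0.734). In total RNA COL1A1 stood at 5540 and 5420 CPM in scramble against 5688 and 5994 CPM in knockdown libraries (0.09 ± 0.12). The COL1A1 fold changes in the 2 kinds of RNA differed by −0.69 ± 0.26 (edgeR interaction unadjusted p = 0.0237, adjusted p = 0.773).

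DESeq2 on the same 4 libraries called 12 genes (0.0867% of those tested), 8 higher (0.0578%) and 4 lower (0.0289%). These held the 3 edgeR calls, STC1 and TNFRSF11B, and the other 7 are named because DESeq2 called them. BAG6, a chaperone that guards newly made membrane proteins, had 194 and 153 counts in scramble and 9 and 23 counts in knockdown polysomes. That is 13.2% of the scramble CPM (log2 fold change −2.95 ± 0.52, edgeR adjusted p = 0.0851), and edgeR called BAG6 in 3 of the 4 fits without a library. ODAPH, a secreted phosphoprotein of tooth enamel, had 36 and 64 counts in scramble and 271 and 118 in knockdown polysomes (2.32 ± 0.43, edgeR adjusted p = 0.104). It did not pass the count filter in total RNA. EIF3C, a core subunit of eIF3, had 604 and 149 counts in scramble and 32 and 57 in knockdown polysomes (−2.58 ± 0.64, edgeR adjusted p = 0.536), and −1.33 without scramble replicate 1. EIF3C has a near-identical neighbour, EIF3CL, so its count is uncertain. ETV4, CDC42EP1, G0S2 and HSD17B10 had log2 fold changes of 1.36, 0.90, 0.90 and 0.92 in polysomes. In total RNA they had 0.31, 0.86, 0.54 and 1.35, in the same order. Of these 4, G0S2, an inhibitor of fat breakdown, stood at 110 and 93.2 CPM in scramble against 189 and 191 CPM in knockdown polysomes.

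Next come the differences of largest size among well-covered genes, without symbols of a clone, LINC, antisense, divergent, host gene or pseudogene kind. They were taken from 259 higher and 228 lower genes. These had an unadjusted p under 0.05 in edgeR, no overlap between groups and a log2 CPM averaging 3 or more. TNFRSF11B was largest on the higher side, followed by ETV4, HMGA2, SNAI2 and CHST2, with log2 fold changes of 1.36, 1.29, 1.27 and 1.21. ETV4 is an ETS factor of the ERK pathway, HMGA2 an architectural chromatin protein, SNAI2 (Slug) a repressor that keeps cells mesenchymal, and CHST2 a sulfotransferase of sugar chains. SNAI2 stood at 13.3 and 11.5 CPM in scramble against 38.1 and 21.6 CPM in knockdown polysomes, both knockdown values above both scramble values and far from each other, and its log2 fold change was 0.80 without knockdown replicate 1 and 1.62 without knockdown replicate 2. Of this group HMGA2 had as large a fold change in total RNA (1.38 ± 0.14), where edgeR called it (adjusted p = 0.0368). MXI1, SCG2, MLLT3, PHF21A and TPBG made up the rest of the 10, with log2 fold changes from 1.07 for TPBG to 1.12 for MXI1, an antagonist of MYC. In total RNA SNAI2, SCG2 and TPBG had 0.78, 0.61 and 0.59, and MXI1 and CHST2 had 0.47 and 0.36. MLLT3 had 0.11 there and PHF21A −0.20.

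On the lower side the same rule gave EIF3C, NPPB, EIF4G2, ANKRD1, NMU, DST, VSIR, RARRES2, MELTF and CRABP2, with log2 fold changes from −2.58 for EIF3C to −1.13 for CRABP2. In total RNA NMU, DST, VSIR, RARRES2, MELTF and CRABP2 had −0.82, −0.36, −0.53, −0.54, −0.29 and −0.42. EIF3C had 0.14 there. NPPB had 0.34 ± 0.54 at only 0.376 to 0.661 CPM in total RNA, with overlap between groups. NPPB encodes brain natriuretic peptide, a heart hormone released on stretch. It stood at 11.6 and 14.4 CPM in scramble against 1.75 and 6.22 CPM in knockdown polysomes. The groups were apart, yet the knockdown replicates differed widely, and the log2 fold change of −1.72 ± 0.45 (edgeR adjusted p = 0.470) became −1.06 without knockdown replicate 1 and −2.88 without knockdown replicate 2. DST, the giant cytolinker dystonin, stood at 16.5 and 13.0 against 4.83 and 8.13 CPM (−1.19 ± 0.32). VSIR, the immune checkpoint protein VISTA, had −1.18, from −1.44 to −0.87 with 1 library left out. CRABP2, which carries retinoic acid, had −1.13, or −0.66 without knockdown replicate 1 and −1.78 without knockdown replicate 2. RARRES2, which encodes chemerin, had −1.16, or −0.67 and −1.86 without the same libraries. Of the 4 fits without a library, edgeR called CRABP2 and RARRES2 in that without knockdown replicate 2 alone.

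Extracellular matrix genes leaned downward in knockdown polysomes. Of 49 listed genes 44 were tested, 38 with a log2 fold change below 0 and 6 above, where 50.8% of all tested genes were below 0. The median was −0.42, against −0.01 over all genes, and stayed between −0.42 and −0.33 when each polysome library was left out. Of the 44, 26 members (59.1%) had both knockdown libraries below both scramble libraries and 3 had them above, beside 18.4 and 17.8% of all genes. By edgeR and by DESeq2 0 members were called, and in edgeR 10 lower and 1 higher member had an unadjusted p under 0.05. In total RNA the same 44 genes split evenly, 22 above and 22 below 0, with a median of 0.00.

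Among fibril-forming and network collagens, COL4A2, a chain of basement membrane collagen, stood at 120 and 86.5 CPM in scramble against 63.3 and 73.5 CPM in knockdown polysomes (log2 fold change −0.60 ± 0.21, edgeR adjusted p = 0.702). COL12A1, a collagen that lies on the surface of fibrils, stood at 28.1 and 20.9 against 15.7 and 15.3 CPM (−0.66 ± 0.24). In both genes the scramble replicates lay above the knockdown replicates, scramble replicate 1 the highest. COL1A2, the partner chain of COL1A1, was chosen for that role after its values were seen. It stood at 91.7 and 35.5 CPM in scramble against 28.1 and 33.2 CPM in knockdown polysomes (−1.05 ± 0.38). There the difference is carried by scramble replicate 1, and the other scramble value lies just above the knockdown values. FBLN2, a fibulin of elastic and basement membrane matrix, stood at 16.6 and 11.4 against 8.47 and 5.68 CPM (−0.98 ± 0.31, edgeR adjusted p = 0.644).

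Of the matricellular and adhesive members, CCN2 and FN1 lay near the list's median, while THBS1, described below, leaned less. CCN2, a matricellular target of TGF-beta and YAP, stood at 389 and 425 CPM in scramble against 314 and 294 CPM in knockdown polysomes (log2 fold change −0.42 ± 0.20), and at 0.02 in total RNA. FN1, which encodes fibronectin, stood at 525 and 338 against 356 and 256 CPM, which overlap (−0.50 ± 0.24). A few members were on the other side. LUM, the proteoglycan lumican, stood higher at 3.82 and 4.25 against 6.01 and 6.69 CPM (0.65 ± 0.37), and so was the laminin chain LAMA4 (1.04 ± 0.43). The largest differences, −1.80 for LAMA1 and −1.43 for COL6A3, were at levels under 6 CPM in every polysome library.

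**Figure D3:**
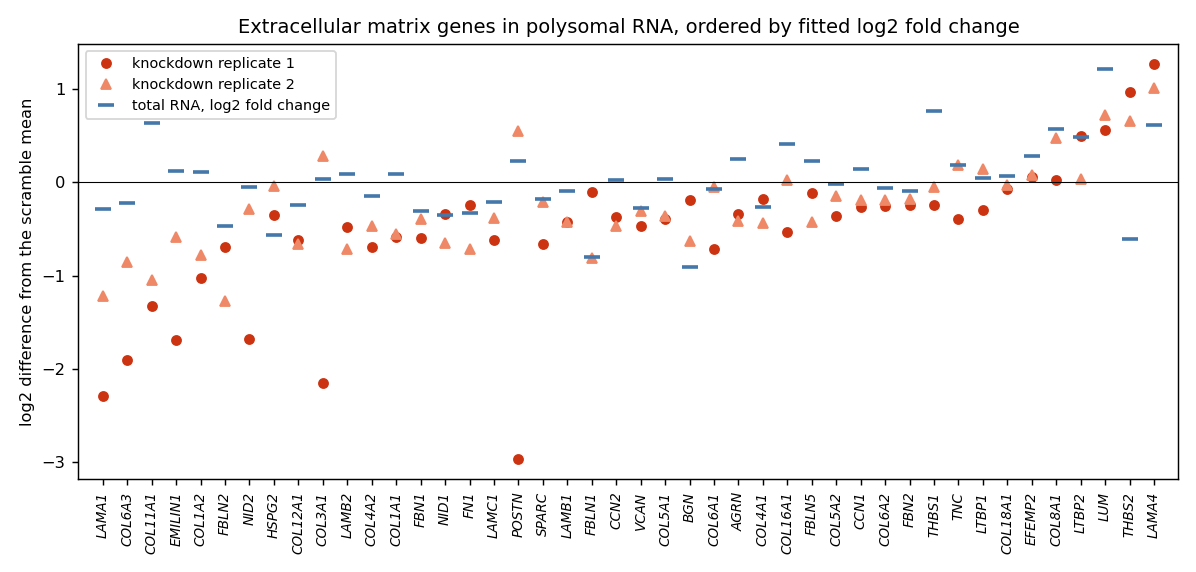
Log2 difference of each knockdown polysome library from the scramble mean (circles replicate 1, triangles replicate 2) for the 44 tested matrix genes, ordered by fitted log2 fold change, with the total RNA fold change as a dash. In 38 of the 44 the fitted polysomal value is below 0, while the dashes lie on both sides, 22 above and 22 below.

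Enzymes that fold and crosslink collagen had 15 of 23 members below 0 and 1 member at an unadjusted p under 0.05 in each direction. Their median of −0.10 was −0.26 without scramble replicate 1 and 0.04 without scramble replicate 2. P4HA2, a prolyl hydroxylase that stabilises the collagen helix, stood at 150 and 148 CPM in scramble against 114 and 94.6 CPM in knockdown polysomes (log2 fold change −0.51 ± 0.19, edgeR adjusted p = 0.734). The scramble values nearly coincided and both knockdown values were lower. CRTAP, a partner of another prolyl hydroxylase, was the higher member, at 144 and 188 against 268 and 206 CPM (0.51 ± 0.21).

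Of contractile genes 28 of 35 tested had a fold change below 0, with a median of −0.25 (−0.30 to −0.13 with 1 library left out) against −0.02 in total RNA. The groups did not overlap in 14 lower (40.0%) and 3 higher members, and 6 lower and 0 higher members had an unadjusted p under 0.05. TAGLN, the smooth muscle protein SM22, named for its role after its values were seen, stood at 1309 and 1145 CPM in scramble against 567 and 1042 CPM in knockdown polysomes (log2 fold change −0.61 ± 0.27). Knockdown replicate 1 was far below and replicate 2 just below the scramble values, and TAGLN stood at −0.24 without replicate 1 and −1.11 without replicate 2. ACTA2, the alpha smooth muscle actin used to mark myofibroblasts, overlapped between groups at 18.6 and 14.0 against 24.9 and 14.3 CPM (0.27 ± 0.28).

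The proteins that tie actin and other filaments together formed the list with the lowest median, −0.64, against −0.26 in total RNA. Of 18 tested, 16 were below 0, 12 (66.7%) had knockdown libraries below scramble libraries without overlap and 0 above, and 10 had an unadjusted p under 0.05, all lower. Without each polysome library in turn the median ran from −0.81 to −0.50. Some of these genes are also on the contractile list, FLNA, FLNC and TLN1 among them. FLNC, the muscle filamin, stood at 17.5 and 13.3 CPM in scramble against 6.44 and 8.91 CPM in knockdown polysomes (log2 fold change −1.01 ± 0.29, edgeR adjusted p = 0.528). SPTBN1, a spectrin, stood at 19.0 and 14.9 against 6.67 and 9.44 CPM (−1.08 ± 0.29). FLNC and SPTBN1 each had both knockdown libraries well below both scramble libraries. ACTN1, an alpha-actinin, did not share this, at 188 and 230 against 201 and 190 CPM (−0.10 ± 0.20). In total RNA knockdown replicate 1 was the lowest library for FLNA, FLNC, DST and SPTBN1. SPTBN1 stood there at 526 and 490 CPM in scramble against 298 and 470 CPM in knockdown replicates 1 and 2. FLNC stood at 606 and 582 against 477 and 626 CPM, which overlap. The part of that library in the total RNA median was not tested.

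TGF-beta pathway genes were spread around 0. Of 35 tested, 21 were above and 14 below 0 (median 0.08), 8 (22.9%) were higher and 4 (11.4%) lower without overlap, and 1 in each direction had an unadjusted p under 0.05. Among receptors TGFBR2, the type II receptor that binds TGF-beta, stood at 41.4 and 53.3 CPM in scramble against 72.0 and 74.5 CPM in knockdown polysomes (log2 fold change 0.63 ± 0.20, edgeR adjusted p = 0.631), and at 0.05 in total RNA. TGFBR1, its signalling partner, overlapped (0.13 ± 0.23). Among proteins that hold the latent ligand, LTBP3 stood at 28.98 and 33.1 against 21.2 and 22.3 CPM (−0.51 ± 0.21). TGFBR1 was chosen for its role after its values were seen.

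Integrins and adhesion proteins had a median of −0.03, with 4 of 25 higher and 6 lower without overlap. FERMT2, a kindlin that activates integrins, stood at 86.0 and 92.4 CPM in scramble against 59.0 and 62.1 CPM in knockdown polysomes (log2 fold change −0.56 ± 0.19, edgeR adjusted p = 0.687), with replicates close together in both groups. Matrix proteases and their inhibitors had a median of 0.09, with 5 of 21 members lower and 2 higher at an unadjusted p under 0.05. PLAT, the tissue plasminogen activator, stood at 43.8 and 59.1 CPM in scramble against 25.9 and 26.0 CPM in knockdown polysomes (−0.99 ± 0.21, edgeR adjusted p = 0.256). MMP1, the interstitial collagenase, stood at 296 and 325 against 479 and 447 CPM (0.57 ± 0.20).

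Secreted hormones and their binding proteins had a median of −0.26 in polysomes and 0.27 in total RNA. The polysomal value differed between the knockdown libraries, at −0.43 in replicate 1 and −0.003 in replicate 2, and was −0.02 without knockdown replicate 1 and without scramble replicate 2, and −0.46 without either of the others. In polysomes the list had 7 of 17 members lower and 4 higher without overlap. STC1, described above, had the highest fold change of this list (2.03), and NPPB one of the low ones (−1.72). IGFBP2, which binds insulin-like growth factors, stood at 24.5 and 37.9 CPM in scramble against 17.7 and 16.6 CPM in knockdown polysomes (log2 fold change −0.86 ± 0.24, edgeR adjusted p = 0.490). Cytokines and growth factors had a median of 0.07 (−0.08 to 0.30 with 1 library left out), with 6 of 28 members each higher and lower without overlap. CXCL12, a chemokine of stromal cells, stood at 64.2 and 83.2 against 90.1 and 110 CPM (0.44 ± 0.20). The TNF receptor family, with TNFRSF11B, had a median of 0.03 over 12 members (−0.12 to 0.22 with 1 library left out).

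Transcription factors of mesenchymal cells leaned upward. Of 21 tested, 16 were above 0, and 11 (52.4%) had both knockdown libraries above both scramble libraries, beside 17.8% of all genes. The median was 0.32, from 0.24 to 0.37 with 1 library left out, and 0.02 in total RNA. By edgeR and by DESeq2 0 members were called, with SNAI2 alone under an unadjusted p of 0.05. SNAI2 was higher in total RNA as well (log2 fold change 0.78 ± 0.13). Its polysomal and total fold changes differed by 0.47 ± 0.35, which did not pass (edgeR interaction adjusted p = 0.843). TWIST2, a basic helix-loop-helix repressor, stood at 56.8 and 59.3 CPM in scramble against 73.3 and 78.8 CPM in knockdown polysomes (log2 fold change 0.39 ± 0.19). WWTR1, the YAP partner TAZ, stood at 22.7 and 17.5 against 26.3 and 26.7 CPM (0.40 ± 0.23). In both genes each knockdown library was above each scramble library, by modest amounts.

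Genes that report ERK activity had a median of 0.16, with 6 of 17 (35.3%) higher and 0 lower without overlap. It stood at 0.38 in knockdown replicate 1 and 0.15 in replicate 2, and ran from 0.12 to 0.38 with 1 library left out, the high value being without knockdown replicate 2. DUSP4, a phosphatase induced by ERK, stood at 11.9 and 11.8 CPM in scramble against 26.9 and 14.9 CPM in knockdown polysomes (log2 fold change 0.83 ± 0.28, edgeR adjusted p = 0.701). FOSL1, a subunit of AP-1, stood at 52.2 and 66.4 against 79.0 and 77.0 CPM (0.40 ± 0.20), and at 0.54 in total RNA. Receptors and kinases upstream had a median of −0.03, with 10 of 39 higher and 9 lower without overlap. S1PR1, a receptor for sphingosine phosphate, stood at 3.48 and 3.72 against 7.38 and 10.2 CPM (1.28 ± 0.36, edgeR adjusted p = 0.481). AKT1, a survival kinase, stood at 79.6 and 86.0 against 129 and 109 CPM (0.52 ± 0.19).

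In the translation machinery edgeR called no gene beyond EIF4G2, and DESeq2 called EIF3C as well. EIF4G1, which joins eIF4E to eIF4A, stood at 37.7 and 56.3 CPM in scramble against 29.1 and 34.0 CPM in knockdown polysomes (log2 fold change −0.58 ± 0.22, edgeR adjusted p = 0.734). EIF4EBP2, a repressor of eIF4E, stood at 40.9 and 39.3 against 58.7 and 50.7 CPM (0.45 ± 0.20). EIF2S2, the beta subunit of eIF2, stood at 279 and 231 against 141 and 191 CPM (−0.62 ± 0.21). Each of the 3 had groups that did not overlap, EIF2S2 with the lowest value in knockdown replicate 1. Medians were 0.11 (−0.08 to 0.24 with 1 library left out) over 14 genes of the eIF4F complex and its partners and 0.04 over 37 other translation factors.

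Cytosolic ribosomal protein mRNAs had 65 of 77 members above 0 and a median of 0.20, against 0.23 in total RNA. Of them 21 (27.3%) were higher and 0 lower without overlap, and 0 had an unadjusted p under 0.05. That median ran from 0.03 to 0.44 with 1 library left out, and ribosomal protein genes took 12.7 and 17.9% of counts in scramble and 16.2 and 16.6% in knockdown polysome libraries. RPSA, a protein of the small subunit, stood at 3386 and 2639 CPM in scramble against 4149 and 3853 CPM in knockdown polysomes (log2 fold change 0.41 ± 0.27). Ribosomal protein genes have many pseudogenes, so these counts are uncertain. The 17 mRNAs that general knowledge lists as served by EIF4G2 had 12 members below 0 and a median of −0.20, against −0.14 in total RNA, with 2 higher and 2 lower without overlap. That median was −0.04 without scramble replicate 1 and −0.32 without scramble replicate 2.

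Mitochondrially encoded mRNAs all had a fold change above 0 (13 of 13, median 0.34), with 2 of 13 free of overlap and 0 under an unadjusted p of 0.05. MT-CO2, a subunit of cytochrome oxidase, stood at 13845 and 32463 CPM in scramble against 35842 and 35440 CPM in knockdown polysomes (log2 fold change 0.62 ± 0.39, edgeR adjusted p = 0.875). The lowest value is that of scramble replicate 1, the library with 7.12% mitochondrial counts, and the median of the 13 was −0.23 without it and 1.36 without scramble replicate 2. Mitochondrial mRNAs are translated inside the organelle, on other ribosomes than those EIF4G2 serves. Nuclear-encoded subunits of oxidative phosphorylation had a median of −0.07 (−0.23 to 0.12 with 1 library left out), with 5 of 56 higher and 2 lower without overlap.

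Enzymes of sterol and fatty acid synthesis had 25 of 33 members below 0 and a median of −0.34 in polysomes and −0.31 in total RNA, with 14 lower (42.4%) and 1 higher without overlap. The polysomal median was −0.17 without knockdown replicate 1 and −0.21 without scramble replicate 2. HMGCS1, which makes the precursor of mevalonate, stood at 77.9 and 72.5 CPM in scramble against 50.2 and 44.3 CPM in knockdown polysomes (log2 fold change −0.67 ± 0.19, edgeR adjusted p = 0.528), and at −0.73 in total RNA. FASN, the fatty acid synthase, had −0.61 in polysomes and −0.44 in total RNA. Interferon response genes had 29 of 34 below 0 and a median of −0.31 in polysomes and −0.41 in total RNA, with 9 lower (26.5%) and 2 higher without overlap. Knockdown replicate 1 stood at −0.06 and replicate 2 at −0.50, and the polysomal median ran from −0.15 without knockdown replicate 2 to −0.57 without knockdown replicate 1. MX2, an antiviral GTPase, stood at 2.88 and 2.60 against 0.473 and 0.897 CPM (−2.01 ± 0.63, edgeR adjusted p = 0.620).

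Stress response genes had a median of −0.09 in polysomes and 0.19 in total RNA, with 6 of 37 higher and 5 lower without overlap. ATF4, the transcription factor at the centre of the integrated stress response, stood at 700 and 695 CPM in scramble against 923 and 958 CPM in knockdown polysomes (log2 fold change 0.43 ± 0.22), with replicates close together and the same lean in total RNA (0.47). Cell cycle genes had 32 of 40 below 0 and a median of −0.19, with 13 lower (32.5%) and 0 higher without overlap. MKI67, the proliferation marker Ki-67, stood at 19.6 and 15.2 against 7.71 and 13.4 CPM (−0.73 ± 0.30, edgeR adjusted p = 0.743). The p53 targets had a median of 0.01 (−0.24 to 0.27 with 1 library left out), and CCNG1, cyclin G1, was their 1 member with an unadjusted p under 0.05, at 84.6 and 73.6 against 175 and 114 CPM (0.87 ± 0.22). Kinesins, tubulins and microtubule proteins had a median of −0.08 over 30 genes and large chromatin modifiers −0.17 over 27 (−0.41 without scramble replicate 2), with 8 of the latter lower and 0 higher without overlap.

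**Figure D4:**
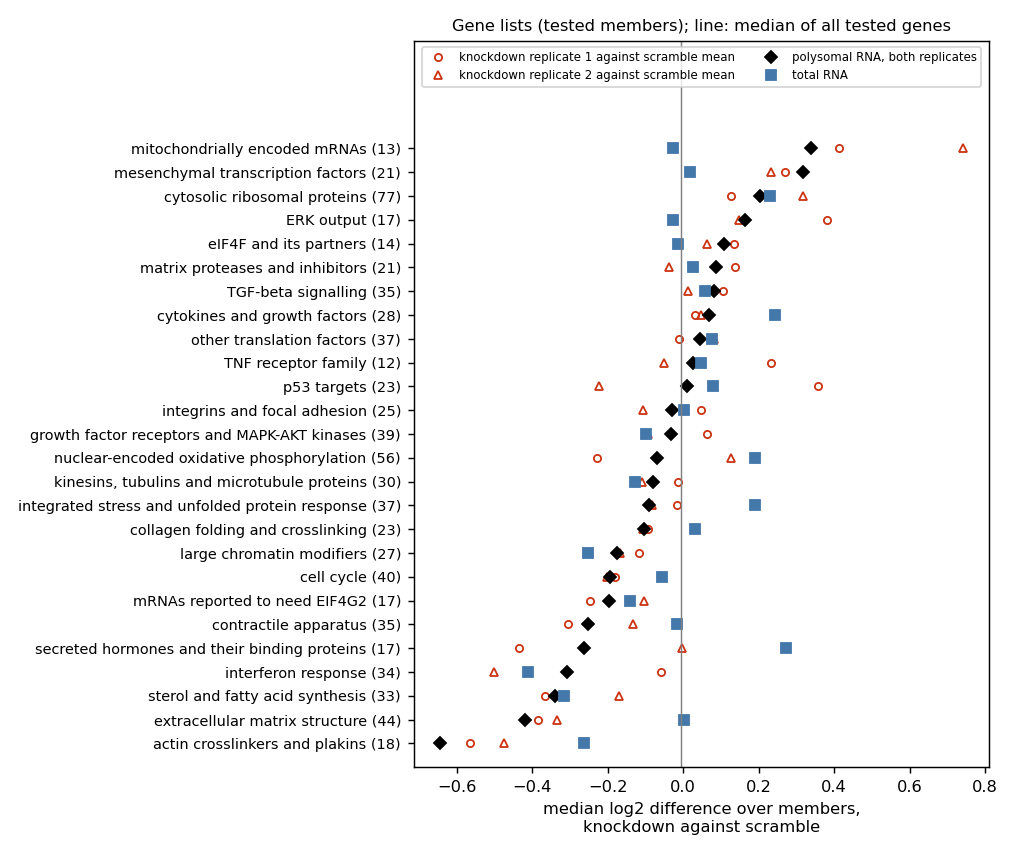
Median log2 difference of knockdown against scramble over the tested members of 26 gene lists, with the number tested in brackets. Diamonds are the polysomal fit, open circles and triangles the 2 knockdown polysome libraries each set against the scramble mean, squares total RNA and the vertical line the polysomal median of all tested genes (−0.01), and matrix genes stand at −0.42 in polysomes and 0.00 in total RNA.

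Protein-coding length was examined because several of the named genes with lower values, FLNA, FLNC and DST among them, are long. Of the tested symbols 12682 matched GENCODE v29, and 11627 were nuclear protein-coding genes with a coding sequence. In the quintile with the shortest coding sequences (median 560 nt) the median log2 fold change was 0.03, and in that with the longest (median 3537 nt) it was −0.11. Genes whose groups did not overlap on the lower side made up 12.04% of the shortest and 25.2% of the longest quintile. The knockdown libraries differed here. Against the scramble mean the medians went from −0.02 to −0.02 in knockdown replicate 1 and from 0.11 to −0.18 in knockdown replicate 2, and total RNA went from 0.13 to −0.16. Without scramble replicate 1 the longest quintile stood at −0.02, and without scramble replicate 2 at −0.17. Spearman's rho of coding length with the fold change across the 11627 genes, which share the same 4 libraries, was −0.12 in polysomes and −0.38 in total RNA, and that of 5′ untranslated length was 0.05 and −0.03. The total RNA values were not split by replicate. Among total libraries the median annotated transcript length per nuclear-encoded count was 2776 nt in knockdown replicate 1. It was 3099 nt in knockdown replicate 2, and 3151 and 3096 nt in scramble. The part of that 1 library in the total RNA slope was not tested. The part of length in the lean of the actin crosslinkers, matrix genes and other lists was not tested.

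**Figure D5:**
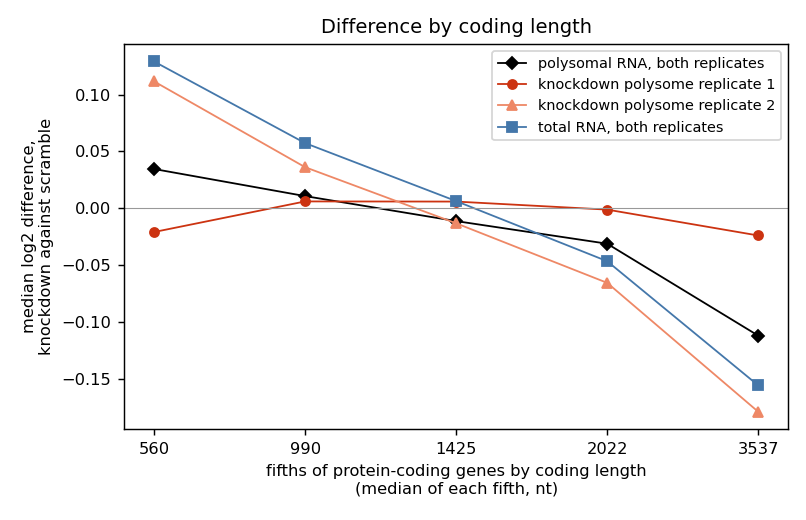
Median log2 difference of knockdown against scramble (vertical) in quintiles of 11627 protein-coding genes by coding length (horizontal, median of each quintile in nt). The lines for knockdown polysome replicate 2 and total RNA slope from 0.11 to −0.18 and from 0.13 to −0.16, while that for knockdown polysome replicate 1 begins and ends at −0.02.

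Markers of other cell types were measured beside these lists. Cardiomyocyte markers summed to 3.80 and 5.37 CPM in scramble against 1.89 and 2.15 CPM in knockdown polysomes, with 6 of 11 (TNNT2, MYH6, MYH7, NPPA, RYR2 and PLN) at 0 counts in all 4. Leukocyte markers summed to 2.81 to 5.54 CPM, with 6 of 9 at 0, PTPRC among them. Mural markers summed to 74.8 and 99.5 CPM in scramble against 55.1 and 66.8 CPM in knockdown polysomes, with KCNJ8, ABCC9 and MYH11 at 0. Endothelial markers summed to 81.1 and 92.0 against 94.6 and 99.3 CPM. Epithelial and embryonic kidney markers summed to 2185 and 2224 CPM in scramble against 1569 and 1596 CPM in knockdown polysomes, with CDH1, NEFL and PAX2 at 0. Nearly all of that sum was the keratins KRT8 and KRT18, with log2 fold changes of −0.44 ± 0.22 and −0.52 ± 0.22. EPCAM, KRT19 and CLDN7 were tested as well, and all 5 tested markers were below 0. Their median was −0.51, at −0.48 in knockdown replicate 1 and −1.11 in replicate 2. Of the 5, 3 (60%) were lower without overlap, beside 18.4% of all tested genes. The mural, epithelial and cardiomyocyte sums thus moved with the groups, as the matrix and contractile lists did, and their part in those results was not tested.

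Whether a polysomal difference departs from that in total RNA was tested over all 8 libraries for 16355 genes. By edgeR 0 genes passed (0%), while 1027 (6.28%) had an unadjusted p below 0.05. DESeq2 called 4. For comparison, the knockdown against scramble test in total RNA called 10 of 15605 genes by edgeR (0.0641%), 9 higher (0.0577%) and 1 lower (0.00641%), the lower being EIF4G2. The interaction had a median of −0.38 over the matrix list, against −0.06 over all polysome-tested genes, and 9 of 44 members lower and 0 higher at an unadjusted p under 0.05. THBS1, a matricellular activator of latent TGF-beta, had one of these, with a log2 fold change of −0.16 ± 0.22 in polysomes and 0.76 in total RNA, and was named after its values were seen. Contractile genes had an interaction median of −0.23, with 4 of 35 tested members lower and 0 higher. Actin crosslinkers had −0.37, with 4 of 18 lower and 0 higher. At an unadjusted p under 0.05 in edgeR's interaction test, 546 of the 13841 polysome-tested genes were lower and 224 higher. The background thus leaned lower as well.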

How the data were processed

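Polysomal and total RNA of IHCF cells was sequenced by the submitters after DNase treatment and polyA enrichment, with paired-end reads, per the labels' protocols and the series' design text, which speaks of triplicates where 2 libraries per group are analysed here. The values are counts per gene symbol that the authors deposited as whole numbers, without normalization. Tools listed in the submitters' processing notes include HISAT2 2.1.0 and, for trimming, Trimmomatic 0.36, with Subread 2.0.1 and its featureCounts, bcl2fastq 2.19.0, R 4.1.2 and DESeq2, and the build listed is GRCh38. The annotation, the strand setting and the handling of multiply matching reads are not given in the sources used here, so counts of overlapping, antisense and near-identical genes are uncertain. Poly(A) enrichment under-samples RNAs with short tails.

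Groups came from the sample labels. A count model was fitted in R 4.3.3 with edgeR 4.0.16, by a robust quasi-likelihood test with TMM scaling and Benjamini-Hochberg adjustment at 0.05 over all tested genes, without covariates. The polysome comparison used its 4 libraries (2 residual degrees of freedom, prior 15.3), total RNA its own 4, and the interaction of hairpin and fraction all 8. Standard errors are the fold change over the square root of the F statistic, and a prior count of 2 entered log2 CPM. An alternative was DESeq2 1.42.0. The fit was tested on simulated data with the real polysome means, library sizes and fitted dispersion (13320 genes). It called 63 of 100 genes changed by a log2 of 1, 100 of 100 changed by 2 and 19 of 13120 left unchanged. Among all calls of this simulation the 19 false ones made up a larger share than the 0.05 that the threshold aims at. Changed genes were drawn only from those above a minimum mean level, with noise independent between genes. These rates thus do not cover lower genes such as STC1, or shifts shared across a library. Totals of 18043714 to 24590030 counts bound the precision of low genes.

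The members and the 26 gene lists (and 6 lists of cell type markers) were chosen with earlier results of these data known, and lists are described by counts and medians, not tested. Named genes are EIF4G2, STC1, TNFRSF11B, FLNA and COL1A1, every called gene, the 10 largest differences in each direction among genes with an unadjusted p under 0.05, a mean log2 CPM of at least 3, groups without overlap and a symbol not of a clone, non-coding or pseudogene kind, and, in each list, the 3 members of smallest p. Others were named after their values were seen, as the text says, and matrix and marker genes given by role or as extremes are of that kind. GENCODE v29, on the same build as the submitters' notes, gave positions, lengths and sequences, and 1 transcript per gene, that with the longest coding sequence, was used. Alternatives were DESeq2, other size factors, other filters, a fit of all 8 libraries, no mitochondrial genes, a replicate block and each library left out. A few named genes are not reported here.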

Additional observations from a re-analysis of the deposited data

Results flagged for a closer look

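In 5 of 93 named genes both knockdown libraries lay on 1 side of scramble in polysomes and on the other side in total RNA. How many of all tested genes do so was not counted. In polysomes the groups did not overlap in 36.2% of all tested genes, and some named genes were chosen for lack of overlap. None of the 5 passed edgeR's interaction test of the difference between the 2 fold changes, with adjusted p = 0.773 for each. S1PR1, the sphingosine phosphate receptor, had the largest difference (log2 1.60 ± 0.32, unadjusted p = 0.000428), with 3.48 and 3.72 against 7.38 and 10.2 CPM in polysomes and 23.9 and 22.9 against 17.0 and 19.9 CPM in total RNA. PHF21A, a histone reader, had 1.27 ± 0.32 (unadjusted p = 0.00222). On the lower side TUBB2A, a beta-tubulin, had −0.80 ± 0.29 (unadjusted p = 0.0186), COL1A1 −0.69 ± 0.26 (unadjusted p = 0.0237) and P4HA2 −0.61 ± 0.20 (unadjusted p = 0.0122). In total RNA these genes differed by less than in polysomes, with log2 fold changes from −0.34 for S1PR1 to 0.09 for COL1A1.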

How the results depend on the processing

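Against 3 polysomal calls by edgeR, DESeq2 called 12, edgeR without a count filter 51 of 21055 genes, a fit with replicate number as a block 36, and fits without each library 10 to 217. Of the 3 main calls, 3 were shared by each of these and by fits with DESeq2's size factors, filterByExpr or no mitochondrial genes, which called 3 each, and 1 by the fit of all 8 libraries, which called 2. In total RNA, against 10, DESeq2 called 129, no filter 567, the block 264, the 8-library fit 0 (599 at an unadjusted p under 0.05) and fits without each library 19 to 5990, where the high counts, 1992 and 5990, came without knockdown total replicates 1 and 2. The interaction had 0 calls, 4 by DESeq2, 0 with the block and 0 to 1 without each library, the 1 being without knockdown polysome replicate 2. The cause of these moves was not tested. Replicate numbers were not taken as pairs, since there are only 2 and same-numbered libraries hardly deviated together (correlation of deviations 0.06 in polysomes and −0.09 in total RNA).

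Of 1020 alternatives for 93 named genes, 943 kept direction and side of the threshold, 73 crossed to the called side, 2 lost the call and 2 turned sign, MT-ND5 (−0.041 without scramble polysome replicate 1, up to 1.02 without scramble replicate 2) and MDM2 (−0.11 without knockdown polysome replicate 1, up to 0.80 without knockdown replicate 2). List and marker medians moved by more than the spread between replicates in 49 of 197 alternatives. The coefficient of variation between replicates was 0.246 in polysomes and 0.112 in total RNA.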
